A study of Mus musculus with 2 samples.

Results

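The 10 genes described here mark or serve the macrophages of the fetal liver, and they were followed in bulk RNA from whole liver at embryonic day 16.5. They are Vcam1, Maea, Adgre1, Siglec1, Clec4f, Timd4, Mertk, Dnase2a, Spic and Cd5l. They were chosen by name. Their symbols were matched in the GENCODE mouse annotation to 10 of the 43346 Ensembl genes in the tables and to 26 of the 103639 transcripts.

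Erythroblasts, the nucleated precursors of red cells, mature in the fetal liver in clusters called erythroblastic islands. A central macrophage holds them by adhesion molecules, engulfs the nuclei they expel and digests the DNA, and it also takes up and exports iron. Kupffer cells are the resident macrophages of the liver sinusoids, and they arise from precursors that settle in the fetal liver, so both kinds of macrophage share many of these genes.

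The series holds 2 libraries of total RNA from the liver of B6NCrl mouse embryos. Both belong to 1 group, with no treatment, mutation or transgene named, and both came from embryos of both sexes, pooled. The pool of replicate 2 held 41 embryos, and the number for replicate 1 is not given. Both carry the same donor identifier, and no label says whether the pools came from separate litters. Nothing here measures variation between single embryos.

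The summed expected count of each library was 44477766 in replicate 1 and 48820712 in replicate 2, where an expected count is an estimated number of reads per gene. Spike-in RNA took 2.50% and 3.19% of it. All 10 hepatocyte markers and all 10 erythroblast markers stood at or above 10 TPM in each library, with medians of 3875 ± 235 and 344 ± 3.32 TPM (SD, n = 2), and none of either list was at 0. TPM is a transcript's share of all transcripts, scaled by a fixed factor and corrected for transcript length, so levels of different genes can be set side by side. As the RNA came from whole liver, fewer cells of a type and less RNA per cell cannot be told apart.

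All 10 genes were detected, that is, their level was at least 1 TPM in both libraries. Over all Ensembl genes that share was 27.9%, and over protein-coding genes it was 52.2%. With a bar of 10 TPM in both libraries 7 of the 10 remained, and the 3 that did not were Timd4, Mertk and Siglec1. The share of all genes at 10 TPM was not taken, here or for the gene lists. The median of the 10 was 13.9 TPM in replicate 1 and 14.6 TPM in replicate 2 (mean 14.2 ± 0.467 TPM, SD, n = 2), beside a median of 10.8 TPM over the 11201 detected protein-coding genes. The levels spanned a ratio of 66.9 from Vcam1 to Siglec1. Vcam1, Cd5l and Maea together held 72.6% of the summed TPM of the 10, which was 289.5 in replicate 1 and 288.5 in replicate 2.

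The order of the mean levels ran Vcam1, Cd5l, Maea, Adgre1, Clec4f, Dnase2a, Spic, Timd4, Mertk and Siglec1. Dnase2a and Spic were the only neighbours in that order whose values in the 2 libraries overlapped. Each other neighbouring pair was separated by more than the difference between libraries, and the order of any pair rests on 2 libraries without a test.

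**Figure D1:**
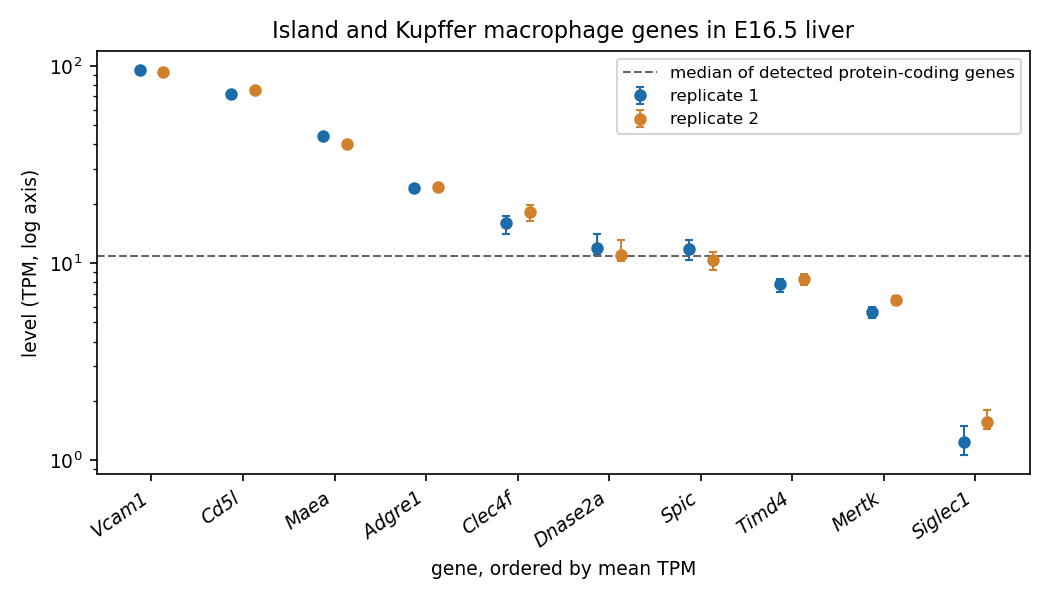
Level of each of the 10 genes in TPM on a log axis, ordered by mean. Points are the 2 libraries, bars are the deposited TPM intervals, whose level is not stated, and the dashed line is the median of detected protein-coding genes, 10.8 TPM. Vcam1 stands highest at 94.8 and 93.1 TPM, Siglec1 lowest at 1.24 and 1.57 TPM, and Dnase2a and Spic are the only neighbours whose points overlap.

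Vcam1 (ENSMUSG00000027962.10, GRCm38 chromosome 3, 116109949 to 116129688, minus strand) encodes the adhesion molecule by which the central macrophage holds erythroblasts through their integrin alpha-4 beta-1. It stood at 94.8 TPM in replicate 1 and 93.1 TPM in replicate 2 (mean 93.9 ± 1.24 TPM, SD, n = 2), on 13168 and 13964 expected counts. It was the highest of the 10 and lay above 91.5% of detected protein-coding genes. The integrin chains that bind it were also present, with Itga4 at 26.5 ± 0.658 TPM and Itgb1 at 60.6 ± 3.61 TPM (SD, n = 2). Vcam1 RNA stood at 3.55 ± 0.135 times that of Itga4 (SD, n = 2), with a ratio of 3.65 in replicate 1 and 3.46 in replicate 2.

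Endothelial and stromal cells can also carry Vcam1. All 10 sinusoidal endothelial markers were detected and none was at 0, and their summed level was 164.2 TPM in replicate 1 and 178.4 TPM in replicate 2. All 10 stellate and mesenchymal markers were likewise detected, with sums of 281.4 and 341.8 TPM. Their part in the level of Vcam1 was not tested. Among 10 other adhesion molecules of endothelium the median was 3.52 ± 0.325 TPM (SD, n = 2) and 7 were detected. The highest were Icam2 at 12.4 ± 0.714 TPM, Icam1 at 9.18 ± 0.665 TPM and Alcam at 7.97 ± 0.728 TPM, and the lowest was Sele, at 0.02 and 0.05 TPM. The RNA of Vcam1 therefore stood above each of the 10 in both libraries.

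Of 12 genes for the other partners in island adhesion, 11 were detected and 10 reached 10 TPM in each library. The highest were Cd47, a signal that restrains engulfment, at 239 ± 6.55 TPM, Icam4, an erythroblast adhesion molecule, at 141 ± 7.98 TPM, and Epor, the erythropoietin receptor, at 93.2 ± 0.955 TPM (SD, n = 2). The lowest was Itga9 at 0.94 and 1.16 TPM. Their median was 18.6 ± 0.863 TPM (SD, n = 2).

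Maea (ENSMUSG00000079562.3, chromosome 5, 33335509 to 33373296, plus strand) was first described as a protein by which erythroblasts and macrophages attach, and it is also a subunit of the CTLH ubiquitin ligase complex, which many cells carry. It stood at 44.2 TPM in replicate 1 and 40.3 TPM in replicate 2 (mean 42.3 ± 2.75 TPM, SD, n = 2), on 3778 and 3723 expected counts. All 11 other genes of the complex were detected, 7 of them reaching 10 TPM in each library, and they had a median of 32.1 ± 1.06 TPM (SD, n = 2). Mkln1 at 122 ± 9.20 TPM, Gid8 at 93.4 ± 7.15 TPM and Ypel5 at 55.3 ± 3.24 TPM stood above Maea, and Ranbp9 was lowest at 1.60 ± 0.0707 TPM (SD, n = 2). Maea thus ranked inside the range of its own complex.

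Adgre1 (ENSMUSG00000004730.10, chromosome 17, 57358691 to 57483527, plus strand) encodes F4/80, the adhesion G protein-coupled receptor most used to mark mouse macrophages. It stood at 24.0 TPM in replicate 1 and 24.2 TPM in replicate 2 (mean 24.1 ± 0.170 TPM, SD, n = 2), the smallest SD of the 10 genes. The general macrophage gene Csf1r, the receptor of the growth factor CSF1, was at 32.4 and 36.9 TPM. The ratio of Adgre1 to Csf1r was 0.740 in replicate 1 and 0.657 in replicate 2.

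Of 17 other adhesion G protein-coupled receptors 7 were detected and 2 reached 10 TPM in both libraries, and their median was 0.905 ± 0.191 TPM (SD, n = 2). Adgrg1 at 37.8 ± 2.88 TPM was the only one above Adgre1 in both libraries. Adgre5, a close relative carried by many blood cells, stood at 15.1 ± 1.21 TPM, and Adgrg3 at 6.54 ± 0.318 TPM (SD, n = 2). The lowest was Adgrb2 at 0 and 0.01 TPM. The ratio of Adgre1 to Adgre5 was 1.60 ± 0.117 (SD, n = 2).

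Siglec1 (ENSMUSG00000027322.7, chromosome 2, 131069220 to 131086765, minus strand) encodes CD169, a lectin that binds sialic acid and marks island and tissue macrophages. It was the lowest of the 10, at 1.24 TPM in replicate 1 and 1.57 TPM in replicate 2 (mean 1.41 ± 0.233 TPM, SD, n = 2). It rested on 300 and 441 expected counts, well above the 3 counts taken as the limit of detection. It lay above only 3.16% of the detected protein-coding genes. The ratio of Siglec1 to Adgre1 was 0.0517 in replicate 1 and 0.0648 in replicate 2.

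The whole Siglec family was low, with 4 of 8 other members detected, none at 10 TPM in both libraries and a median of 1.10 ± 0.152 TPM (SD, n = 2). Siglece stood at 3.84 ± 0.608 TPM, Cd33 at 2.66 ± 0.396 TPM and Siglecf at 1.62 ± 0.0424 TPM (SD, n = 2), and Siglec15 was listed at 0 in both libraries. Siglec1 lay below each of these 3 in both libraries, although its 1.57 TPM in replicate 2 nearly met the 1.59 TPM of Siglecf there.

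Clec4f (ENSMUSG00000014542.2, chromosome 6, 83644542 to 83656187, minus strand) encodes a galactose-binding C-type lectin that is used to mark mouse Kupffer cells. It stood at 15.9 TPM in replicate 1 and 18.2 TPM in replicate 2 (mean 17.0 ± 1.63 TPM, SD, n = 2), on 1281 and 1653 expected counts. Of 20 other C-type lectin receptors 14 were detected and 5 reached 10 TPM in both libraries, with a median of 5.30 ± 0.152 TPM (SD, n = 2). The highest were Clec1b at 23.4 ± 0.544 TPM, Clec4n at 18.5 ± 1.32 TPM and Clec4a2 at 12.5 ± 0.396 TPM (SD, n = 2), and the lowest was Cd209b at 0 and 0.05 TPM. Clec4f and Clec4n overlapped. Its neighbour on the same strand, Cd207, was at 1.28 and 1.11 TPM.

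The Clec4f gene held 2 transcripts in the tables. Clec4f-201, the coding one, took 75.5% of the gene's TPM in replicate 1 and 80.0% in replicate 2, and Clec4f-202, a processed transcript with no coding frame, took the other 24.5% and 20.0%. The first splice junction tells them apart and is printed because the split of the gene's TPM rests on such differences. Lower case gives the last 15 bases of the first exon and capitals the first 15 of the next, 5′ to 3′, from the GRCm38 genome with GENCODE exon ends.
Clec4f-201: ccctacagccccaagGACTGGGGCCTAAGT
Clec4f-202: gggcttgcaggacagAGATGCAGAGTTTGA
The coding form joins base 83655957 to 83655174, and the other joins 83656068 to 83652487, which leaves out exons of the coding form. By expected counts, which are not corrected for length, Clec4f-201 held 93.5% and 94.9%. With the coding transcript alone the level of Clec4f was 13.3 TPM. The tables hold no count of reads over a junction, so the split is the estimate of the quantification program.

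Timd4 (ENSMUSG00000055546.6, chromosome 11, 46810800 to 46844332, plus strand) encodes a receptor for phosphatidylserine, the lipid exposed by dying cells and expelled nuclei, and it marks tissue macrophages of embryonic origin. It stood at 7.85 TPM in replicate 1 and 8.34 TPM in replicate 2 (mean 8.10 ± 0.346 TPM, SD, n = 2), on 685 and 787 expected counts. Its relative Timd2, a receptor for ferritin, was at 49.1 and 49.4 TPM, so the ratio of Timd4 to Timd2 was 0.164 ± 0.0063 (SD, n = 2). Havcr1, the gene just before Timd4 on the same strand and of the same family, was at 0.05 and 0.12 TPM. The ratio of Clec4f to Timd4, 2 genes of resident macrophages, was 2.02 in replicate 1 and 2.18 in replicate 2.

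Mertk (ENSMUSG00000014361.5, chromosome 2, 128698956 to 128802894, plus strand) encodes a receptor tyrosine kinase that drives engulfment through the bridging proteins Gas6 and Pros1. It stood at 5.62 TPM in replicate 1 and 6.50 TPM in replicate 2 (mean 6.06 ± 0.622 TPM, SD, n = 2), on 995 and 1243 expected counts. Its relative Axl was higher in both libraries, at 18.2 and 22.3 TPM, and Tyro3 lower in both, at 0.66 and 0.94 TPM. The ratio of Mertk to Axl was 0.300 ± 0.0114 and that of Mertk to Tyro3 7.72 ± 1.13 (SD, n = 2). Of the bridging proteins, Pros1 was at 11.2 and 11.0 TPM and Gas6 at 4.77 and 7.11 TPM, with a ratio of Pros1 to Gas6 of 2.34 in replicate 1 and 1.54 in replicate 2. All of the TPM of Mertk was on Mertk-201, and the second transcript, Mertk-202, was listed at 0 in both libraries. An antisense gene inside Mertk, Gm14011, held 0.12 and 0.22 TPM on 1 and 2 expected counts. No source names strand-specific counting, but the expected counts of both genes were whole numbers, so no division of reads between them was seen.

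Of 21 other genes for engulfment 16 were detected and 10 reached 10 TPM in both libraries, with a median of 5.94 ± 1.65 TPM (SD, n = 2). The highest were Mfge8, a bridge to phosphatidylserine, at 84.7 ± 4.73 TPM, Anxa1 at 81.2 ± 9.91 TPM and Rac1, a small GTPase of the cytoskeleton, at 69.9 ± 13.2 TPM (SD, n = 2). The lowest was Adgrb1 at 0 and 0.09 TPM. Timd4 and Mertk stood near the middle of this list, and most of its genes are not restricted to macrophages.

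Dnase2a (ENSMUSG00000003812.9, chromosome 8, 84908560 to 84922915, plus strand) encodes DNase II, the acid nuclease of the lysosome that breaks down the DNA of engulfed nuclei. It stood at 11.9 TPM in replicate 1 and 10.9 TPM in replicate 2 (mean 11.4 ± 0.693 TPM, SD, n = 2). Its relative Dnase2b was at 3.84 and 4.21 TPM, and the ratio of Dnase2a to Dnase2b was 2.85 ± 0.357 (SD, n = 2). Of 12 other genes of DNA digestion and DNA sensing 7 were detected, with a median of 3.68 ± 0.177 TPM (SD, n = 2). The highest were Ifnar1, a chain of the type I interferon receptor, at 20.0 ± 2.00 TPM, Dnase1l1 at 20.0 ± 1.13 TPM and Samhd1 at 13.6 ± 1.00 TPM (SD, n = 2). Trex2 and Ifnb1, the gene of interferon beta, were listed at 0 in both libraries.

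Dnase2a differed from the other 9 genes in how its RNA was divided. It held 9 transcripts in the tables, of which 7 had counts in both libraries. The coding transcript Dnase2a-201 led with 4.52 TPM in replicate 1 and 5.04 TPM in replicate 2, that is 38.0% and 46.2% of the gene. All coding transcripts together held 50.5% and 51.0%, or 6.02 and 5.57 TPM. Across the 8288 detected coding genes with several transcripts the median coding share was 93.3%, and 10.4% of them had a lower share than Dnase2a.

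The rest of Dnase2a was on transcripts with no coding frame. Dnase2a-203 held 17.8% and 23.0% and Dnase2a-207 14.6% and 13.7% of the gene's TPM. Dnase2a-203 runs past the end of the coding form into Mast1, a kinase gene on the opposite strand (84911903 to 84937359), and Dnase2a-207, which starts at 84913391, lies wholly within Mast1. Mast1 itself held 0.09 and 0.13 TPM. Together they took 32.4% and 36.7% of the TPM and 53.0% and 55.9% of the expected counts, so by counts the longer Dnase2a-203 led in both libraries. Transcripts with a retained intron took another 17.0% and 12.3% of the TPM, but on few expected counts. Dnase2a-209 rested on 20.73 in replicate 1 and 17.8 in replicate 2, and Dnase2a-208 on 12.71 and 4.52. With no strand-specific step named, reads of Dnase2a and Mast1 in the shared stretch were not told apart.

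The last junction of Dnase2a-203 and the first of Dnase2a-207 are printed because they tell apart the 2 non-coding transcripts that overlap Mast1, and both lie inside the Mast1 locus. Lower case gives the 15 bases before each junction and capitals the 15 after it.
Dnase2a-203: gacaaataccaaaagGATTAAAGGCATGCG
Dnase2a-207: gacaaataccaaaagGTGGGGGATGAACTC
Both leave the same exon end, base 84913528, and continue at 84914062 in Dnase2a-203 and at 84920394 in Dnase2a-207. The erythroid transcription factor gene Klf1, which also acts in island macrophages, lies 3269 bases before Dnase2a on the same strand. Klf1 stood at 346.3 and 356.1 TPM, and the ratio of Dnase2a to Klf1 was 0.0325 ± 0.0026 (SD, n = 2).

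**Figure D2:**
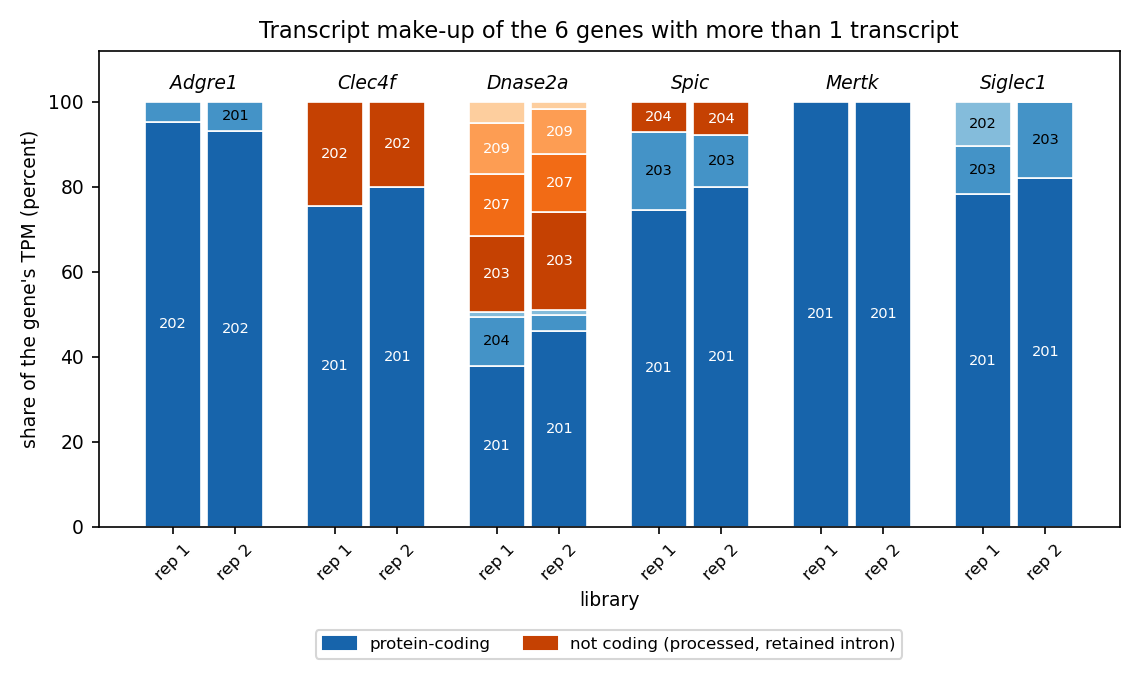
Share of each gene's TPM, in percent, held by each listed transcript in each library, for the 6 genes with more than 1 transcript. Blue parts are protein-coding and orange parts are not, and numbers are the last 3 digits of the transcript name. Dnase2a is the gene with the largest non-coding part, with coding shares of 50.5% and 51.0%. All 6 are led by a coding transcript, which in Dnase2a holds 38.0% in replicate 1 and 46.2% in replicate 2.

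Spic (ENSMUSG00000004359.12, chromosome 10, 88674772 to 88685015, minus strand) encodes a transcription factor of the Ets family that is induced by heme and drives the macrophages that recycle iron. It stood at 11.8 TPM in replicate 1 and 10.3 TPM in replicate 2 (mean 11.1 ± 1.05 TPM, SD, n = 2), on 746 and 738 expected counts. Its relative Spi1, which encodes PU.1, was at 14.7 and 15.9 TPM, and the ratio of Spic to Spi1 was 0.806 in replicate 1 and 0.648 in replicate 2. Spib, the third gene of that subfamily, was at 1.27 and 1.61 TPM, and the ratio of Spic to Spib was 7.86 ± 2.04 (SD, n = 2).

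Of 15 genes of heme and iron handling around Spic 14 were detected and 11 reached 10 TPM in both libraries, with a median of 36.3 ± 0.325 TPM (SD, n = 2). The highest were Blvrb, a biliverdin reductase, at 716 ± 14.0 TPM, Hpx, the plasma protein that binds heme, at 424 ± 30.4 TPM and Hp, which binds hemoglobin, at 195 ± 27.9 TPM (SD, n = 2). Hepatocytes are known to secrete Hpx and Hp, and erythroid cells to carry Blvrb, and the part of each cell type in these levels was not tested. Cd163, the hemoglobin receptor, was lowest at 0.26 and 0.31 TPM.

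Among 16 transcription factors of Kupffer cells 14 were detected and 6 reached 10 TPM in both libraries, with a median of 5.89 ± 0.866 TPM (SD, n = 2). Id3 stood at 34.2 ± 1.70 TPM, Nr1h3, which encodes the sterol sensor LXR alpha, at 17.4 ± 1.09 TPM and Bhlhe40 at 17.0 ± 2.10 TPM (SD, n = 2). Bhlhe41 was lowest at 0.07 and 0.11 TPM. Spic lay between these highest factors and the median of the list.

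The main transcript of Spic, Spic-201, held 74.6% and 80.0% of the gene's TPM. Spic-203, a coding form that starts 1992 bases further upstream, held 18.2% and 12.1%, on 49.57 and 31.02 expected counts. The retained-intron form Spic-204 held 7.19% and 7.93%, and Spic-202 was listed at 0. The 2 start sites were not told apart by any count of reads at the start itself.

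Cd5l (ENSMUSG00000015854.7, chromosome 3, 87357881 to 87371073, plus strand) encodes a secreted protein of the scavenger receptor cysteine-rich family that tissue macrophages release into the blood. It stood at 72.2 TPM in replicate 1 and 75.0 TPM in replicate 2 (mean 73.6 ± 2.04 TPM, SD, n = 2), on 5884 and 6611 expected counts. It was higher in both libraries than each of 9 relatives with such domains, of which 3 were detected, with a median of 0.330 ± 0.0990 TPM (SD, n = 2). The highest were Marco, a scavenger receptor of macrophages, at 42.1 ± 3.20 TPM, Lgals3bp at 34.2 ± 5.84 TPM and Msr1 at 4.54 ± 0.212 TPM (SD, n = 2), and the lowest was Cd6 at 0 and 0.03 TPM. The ratio of Cd5l to Cd163 was 278 in replicate 1 and 242 in replicate 2, with Cd163 on 48 and 62 expected counts. The nearest genes on either side, Fcrls and Fcrl1, held 0.65 and 0.48 TPM and 0.72 and 1.10 TPM, so the level of Cd5l was not shared by its locus.

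**Figure D3:**
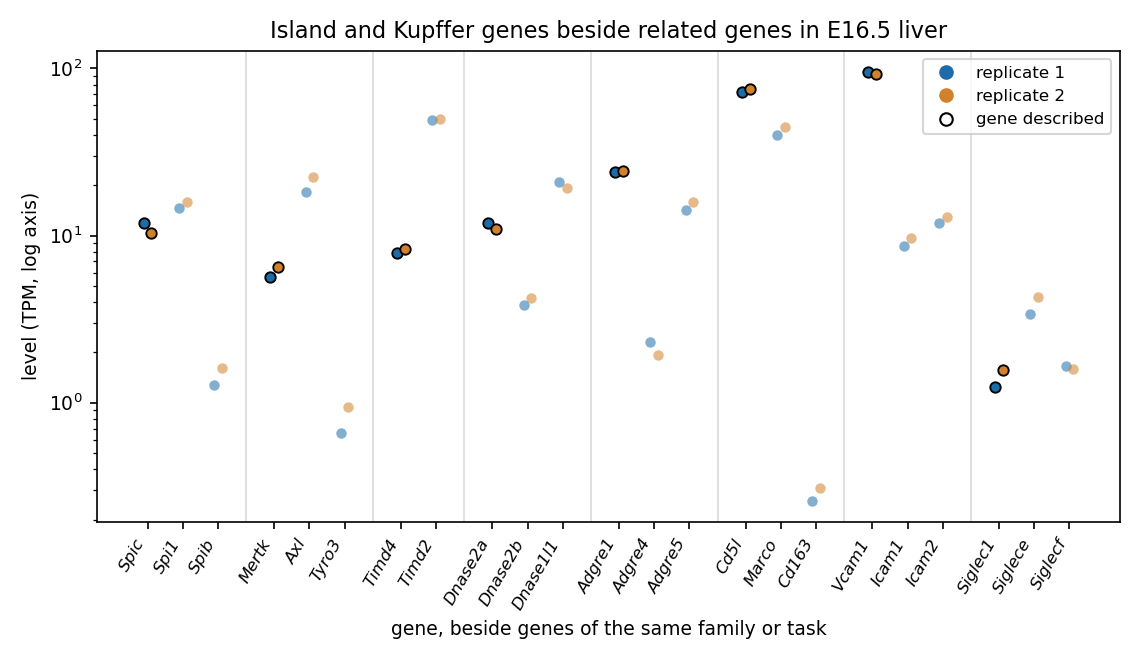
Level in TPM, on a log axis, of 8 of the genes (outlined points) beside genes of the same family or task, with 1 point per library. Cd5l and Vcam1 stand above the genes drawn beside them, Mertk lies between Axl and Tyro3, and Timd4 lies below Timd2, at 7.85 and 8.34 against 49.1 and 49.4 TPM.

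The bases before the start site were read from RefSeq promoter windows on GRCm38.p6, which matched 6 of the 10 genes: Cd5l, Clec4f, Dnase2a, Mertk, Spic and Timd4. Each window was cut to the 250 bases before the RefSeq start. Across 32807 such windows the median number of CpG dinucleotides was 6. Cd5l and Clec4f had 0, Spic 1, Timd4 4, Mertk 7 and Dnase2a 20, which is more than 82.0% of the windows. Cd5l, Clec4f, Spic and Timd4 thus had fewer CpG than the median window, while Mertk and Dnase2a had more, an order described for 6 genes without a test. The RefSeq start lay 195 bases inside the leading transcript of Dnase2a and 71 bases inside that of Clec4f. That part of each of these windows therefore lies within the annotated transcript and not before it.

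Cd5l, Spic and Mertk, with 0, 1 and 7 CpG, are printed as examples. Their RefSeq start is that of the leading transcript or lies within 41 bases of it, which also holds for Timd4. CpG dinucleotides are in capitals, and in Cd5l, which has none, capitals mark a PU box, the core bound by PU.1 and Spi-C.
Cd5l, chr3:87357631-87357880, plus strand: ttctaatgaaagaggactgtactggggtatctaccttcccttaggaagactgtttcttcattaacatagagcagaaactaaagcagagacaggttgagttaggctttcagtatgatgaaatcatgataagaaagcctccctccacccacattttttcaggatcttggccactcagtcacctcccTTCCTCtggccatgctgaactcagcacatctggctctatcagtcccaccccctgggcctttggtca
Spic, chr10:88683024-88683273, minus strand: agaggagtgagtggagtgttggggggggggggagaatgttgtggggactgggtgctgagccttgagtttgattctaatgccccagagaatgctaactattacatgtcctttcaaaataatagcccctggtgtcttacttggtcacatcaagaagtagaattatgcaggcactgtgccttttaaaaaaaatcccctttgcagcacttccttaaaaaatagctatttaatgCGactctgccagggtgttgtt
Mertk, chr2:128698665-128698914, plus strand: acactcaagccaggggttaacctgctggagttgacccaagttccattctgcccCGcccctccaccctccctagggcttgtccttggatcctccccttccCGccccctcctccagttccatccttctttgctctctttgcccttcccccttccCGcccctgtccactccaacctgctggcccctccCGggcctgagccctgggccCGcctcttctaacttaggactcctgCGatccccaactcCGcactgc

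The PU box and 3 other motifs were searched on both strands of the 6 windows, with no overlapping matches. The PU box GAGGAA was found in Cd5l only, 66 bases before the start on the opposite strand, and 23.3% of all windows held it. The TATA box TATAAA, held by 12.4% of windows, the GATA site AGATAA, held by 9.99%, and the E-box CACGTG, held by 6.02%, were not found in the 6. Only the exact letters given were searched, so other forms of each motif were not counted. These motifs were chosen after the sequences had been seen. A match describes letters in the window and not a bound site.

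Macrophage genes outside the 10 gave the levels beside which they were read. All 20 general macrophage markers were detected, 13 reached 10 TPM in each library, and they had a median of 25.1 ± 0.686 TPM (SD, n = 2). Lyz2 stood at 627 ± 29.6 TPM, Tyrobp at 133 ± 1.70 TPM and Lpl at 133 ± 7.64 TPM, and Cd14 was lowest at 2.15 ± 0.0212 TPM (SD, n = 2). Lyz2 is also a gene of granulocytes and monocytes, whose 12 markers were all detected, with sums of 6135 TPM in replicate 1 and 6452 TPM in replicate 2. The part of those cells in the level of the shared genes was not tested. Of 16 other Kupffer cell markers 15 were detected and 11 reached 10 TPM in both libraries, with a median of 19.6 ± 0.820 TPM (SD, n = 2). The iron exporter Slc40a1 at 157 ± 0.573 TPM, the heme oxygenase Hmox1 at 136 ± 1.63 TPM and the ficolin Fcna at 76.6 ± 0.453 TPM were highest (SD, n = 2), and Cd163, at 0.26 and 0.31 TPM, was the one not detected. Erythroblasts also carry Slc40a1 and Hmox1. The part of other cell types in the levels of the remaining genes of both lists was not tested either.

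Of 11 genes that regulate the island, 8 were detected and 6 reached 10 TPM in both libraries, with a median of 12.7 ± 1.91 TPM (SD, n = 2). Klf1, Slc40a1 and Hmox1 were highest, and Il34, a ligand of the receptor encoded by Csf1r, was lowest at 0.01 and 0.27 TPM. Of the remaining cell types, all 6 megakaryocyte markers and all 6 B lymphoid markers were detected, with medians of 25.0 ± 1.88 and 10.5 ± 1.29 TPM (SD, n = 2), and none was at 0. The sinusoidal endothelial list had a median of 13.5 ± 0.166 TPM and the stellate list one of 15.8 ± 0.534 TPM (SD, n = 2), beside 14.2 TPM for the 10 island and Kupffer genes.

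**Figure D4:**
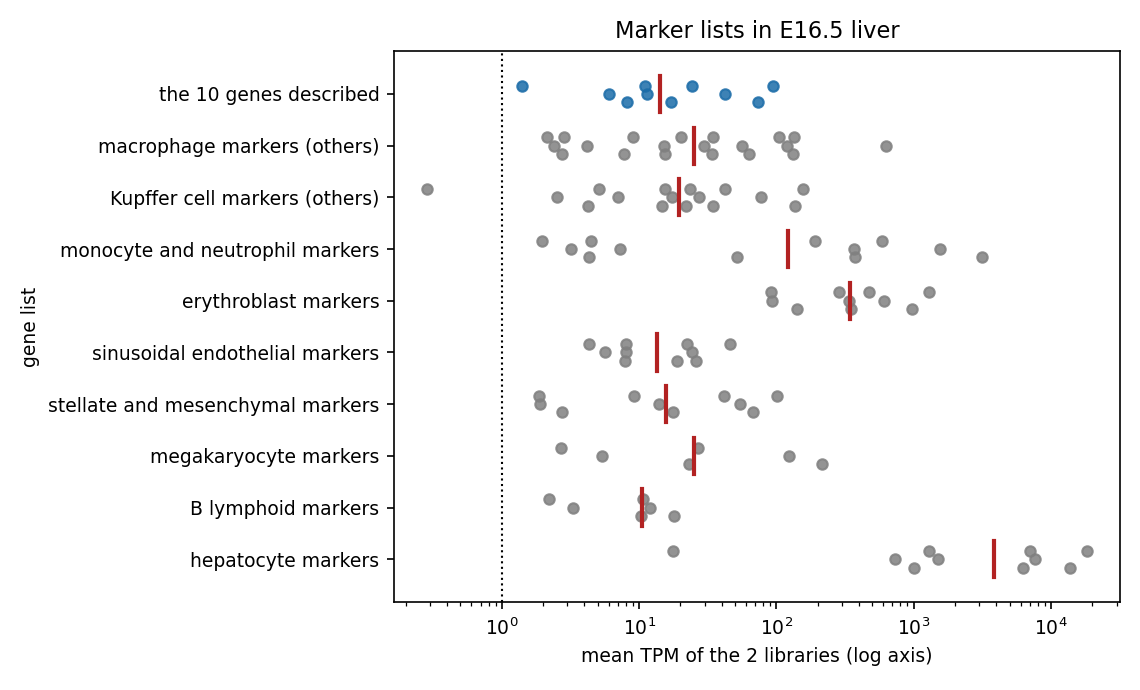
Mean TPM of the 2 libraries, on a log axis, for each gene of the 10 (blue) and of 9 marker lists (grey), with the median of each list as a red line and 1 TPM as a dotted line. All 10 genes lie above the dotted line, with a median of 14.2 TPM. The hepatocyte list, with a median of 3875 TPM, and the erythroblast list, with 344 TPM, lie highest, and Cd163 in the Kupffer list lies below the dotted line.

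The only contrast in the design is between the 2 pools, which compares 1 library with 1 and has no test. TPM + 1 in replicate 2 was divided by that in replicate 1, put on a log2 scale and centred on the median of genes averaging at least 100 expected counts. None of the 10 genes differed by over 1.5-fold, against 1.89% of the 16258 genes averaging at least 10 expected counts. The ratios ran from −0.20 in Spic to 0.18 in Siglec1 with a median of 0.02, inside the range of −0.26 to 0.35 that held the 5th to the 95th percentile of all those genes. Of the 10, 5 were higher and 5 lower in replicate 2. Scaled to the spike-ins, which moved the median of all genes to −0.25, 1 was higher and 9 were lower.

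Counting error was smaller than these ratios for part of the genes. An exact 95% interval for the ratio of expected counts per library depth excluded 1 for 5 of the 10, beside 42.2% of all genes tested. It lay above 1 for Siglec1 at 1.35 (1.16 to 1.57), Clec4f at 1.18 (1.10 to 1.27) and Mertk at 1.15 (1.05 to 1.25). Under spike-in scaling the log2 ratios of Clec4f and Mertk turned to −0.11 and −0.14, beside the −0.25 of the median gene, and that of Siglec1 was 0.04. The interval lay below 1 for Maea at 0.904 (0.864 to 0.946) and Vcam1 at 0.973 (0.950 to 0.996). The interval of Siglec1 reaches past 1.5. Its log2 ratio of TPM was made smaller than that of its counts in part by the added 1 TPM and by centring. Without either, the TPM ratio of Siglec1 was 1.27, and its average transcript length was 5838 in replicate 1 and 6280 in replicate 2. The deposited TPM intervals of the 2 libraries lay apart for 2 of the 10, Maea and Mertk, beside 20.6% of all genes tested.

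The ratio between the pools was also taken for the marker lists of other cell types, of which 1 gene in the stellate list and none in the others named here passed 1.5-fold. The median log2 ratio was 0.21 over the stellate list, 0.23 over the B lymphoid list, 0.12 over the hepatocyte list and 0.10 over the sinusoidal endothelial list, beside 0.05 over the general macrophage list, 0.02 over the other Kupffer markers and −0.01 over the erythroblast list. The part of those cells in the ratios of Siglec1, Clec4f and Mertk was not tested.

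The direction of Dnase2a depended on the unit, as did that of Adgre1, whose ratio was near 0 in both units. For Dnase2a the TPM gave a ratio of −0.13, while the expected counts, 810 and 936, gave 1.06 per depth (0.964 to 1.17). The gene length that the tables use, an average over its transcripts, was 1714 in replicate 1 and 1983 in replicate 2. Dnase2a was also the only one of the 10 whose expected counts were not whole numbers, to within 0.01, that is, part of its reads were divided with other genes. The expected counts of Mast1, 11.96 and 22.6, were not whole either.

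**Figure D5:**
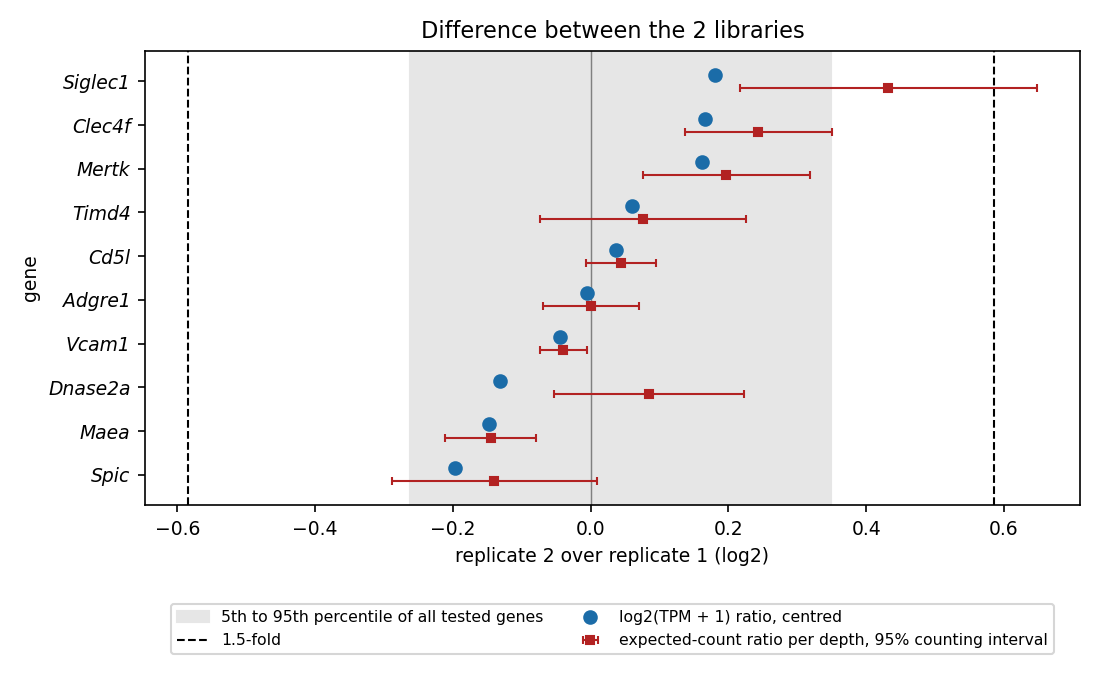
Replicate 2 over replicate 1 on a log2 axis for each gene. Circles are the centred ratio of TPM + 1, squares the ratio of expected counts per depth with an exact 95% counting interval, the grey band the 5th to 95th percentile of all tested genes and the dashed lines 1.5-fold. All circles lie inside the grey band. Dnase2a and, very near 0, Adgre1 have circle and square on opposite sides of 0, and the bars of both squares cross 0.

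Transcript use was the same in both pools as far as the leading form goes. Of the 10 genes, Timd4, Maea, Vcam1 and Cd5l had 1 transcript in the tables, and the leading transcript of the other 6 was the same in both libraries in 6 of 6, beside 91.0% of all detected genes with several transcripts. Adgre1-202 held 95.3% and 93.1% of its gene. Adgre1-201 has the same 2793 coding bases and differs by an intron removed after the stop codon, so the share of the 2 forms does not change the protein. Siglec1-201 held 78.2% and 82.2%, and Siglec1-202, with 10.5% in replicate 1, was listed at 0 in replicate 2, on 9.83 expected counts against 0. The deposited TPM intervals of Siglec1-202 overlapped, reaching up to 0.391 TPM in replicate 1 and 0.222 TPM in replicate 2.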

How the data were processed

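Total RNA above 200 nt from E16.5 liver was sequenced in 2 libraries made from 10 ng each with the SMARTer ultra-low input kit after mirVana extraction, with spike-ins, per the labels. The authors deposited gene and transcript tables for each library on mm10 with GENCODE M4, per the text deposited beside them. Of the aligner and the quantification program, the names are not given in the sources used here. Deposited expected counts are estimated counts with shared reads divided among features. The deposited TPM sums to the same total in each table, spike-ins included. The deposited FPKM and the deposited percent of each transcript in its gene served as alternatives. The deposited TPM interval bounds, entered as a signal on the TPM scale, carry no stated level. Posterior mean TPM is a second deposited estimate.

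Symbols and coordinates came from GENCODE M21 (GRCm38), with IDs matched without version: 42462 of 43346 Ensembl genes matched. Promoter windows came from RefSeq. Levels are mean and SD of 2 libraries. With 1 group no p-value was possible, and nothing says whether the pools came from separate litters. A gene was detected at 1 TPM in both libraries. The library ratio used a pseudocount of 1 and a mean expected count of 10, and its centre a mean expected count of 100. Count-ratio intervals (95%, exact binomial on expected counts rounded to whole numbers) and the limit of 3 counts, 0.0678 and 0.0628 TPM for a gene of median length, cover counting error only, since reads carried no molecular identifiers.

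The genes, lists and tests were chosen with earlier results of these data known. Of each list the 3 highest genes and the lowest are named, with the genes of fixed ratios and some of the adjacent genes. Among the adjacent genes left out above, Anapc1 beside Mertk was at 21.8 and 20.9 TPM and Mybpc1 beside Spic at 7.15 and 15.75 TPM. Mast1, Gm14011 and, in a plot, Adgre4 were chosen after their values were seen. The ratio was tested on simulated data. Alternatives used edgeR 4.0.16 and DESeq2 1.42.0 (R 4.3.3) for scaling only, and the rest pandas 2.3.3, scipy 1.17.1, numpy 2.4.6 and matplotlib 3.10.9 in python 3.11.15.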

Additional observations from a re-analysis of the deposited data

How the results depend on the processing

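The number of the 10 genes past 1.5-fold between libraries stayed at 0 with pseudocounts of 0.1 and 0.5, TMM factors, DESeq2 size factors, spike-in scaling, no centring, posterior mean TPM and depth-scaled counts. Over all genes averaging at least 10 counts, the share past it was 8.37% and 3.26% with those pseudocounts and 4.59% with spike-in scaling. It lay between 1.59% and 1.96% with the others. The 2-fold bar could not change the count of 0, since it is stricter. The other count filters could not either, since every one of the 10 averaged over 100 counts. The number detected was 10 at 0.5 TPM, 9 at 5 TPM and 7 at 10 TPM. The share of all genes was taken at 1 TPM only, so these counts have no background beside them. The leading transcript was the same in 6 of 6 genes by each measure of share. The median level of the 10, 14.2 TPM, was 13.4 as FPKM and 23.3 as TPM rescaled without spike-ins, unnamed rows and globin genes, and each gene's level was higher under the latter. It was 11.8 with coding transcripts alone and 11.1 without Vcam1, Maea and Dnase2a, 3 genes that other cells also carry. With a single library it was 13.9 and 14.6. Coding transcripts alone and depth-scaled counts were chosen after seeing the data. Dnase2a fell to 5.80 TPM with coding transcripts alone, and its library ratio turned to 0.06 under TMM factors and 0.08 with depth-scaled counts. Spike-in scaling turned the ratios of Timd4 to −0.25, Cd5l to −0.31, Clec4f to −0.11 and Mertk to −0.14, with the median of all genes at −0.25. Counts in place of TPM moved the ratio of Cd5l to Cd163 to 115, of Spic to Spib to 4.44, of Vcam1 to Itga4 to 2.15 and of Siglec1 to Adgre1 to 0.111, since counts are not corrected for length. No ratio crossed 1. No paired analysis was possible because the labels hold 1 group. Depth limits the small transcripts. Spic-203, Siglec1-202, Dnase2a-202, Dnase2a-204, Dnase2a-208 and Dnase2a-209 rest on under 50 counts in each library.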
